A study of Mus musculus with 48 samples.

Results

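The 10 genes described here lie downstream of the Erk kinase cascade and were followed in mouse embryonic stem cells as they left the naive state: the immediate early genes Egr1 (ENSMUSG00000038418), Fos (ENSMUSG00000021250), Fosl1 (ENSMUSG00000024912), Jun (ENSMUSG00000052684), Junb (ENSMUSG00000052837), Ier2 (ENSMUSG00000053560) and Ier3 (ENSMUSG00000003541), and the Ets factors Etv1 (ENSMUSG00000004151), Etv4 (ENSMUSG00000017724) and Etv5 (ENSMUSG00000013089). They were chosen by a fixed list of 10 Ensembl identifiers, and all 10 are among the 22745 genes of the table; no filter on low values was used, so all were tested. RNA levels come from Affymetrix Mouse Exon 1.0 ST microarrays of 3 lines: XX Pgk12.1 cells (18 arrays at 16 times), XO Pgk12.1 cells (19 arrays at 17 times) and XY E14 cells (10 arrays at 9 times). At 0 h all lines grew in N2B27 medium with LIF, the Gsk3 inhibitor CT-99021 and the Mek1 inhibitor PD-0325901. From then to 84 h they were kept on fibronectin in N2B27 medium with Activin A and Fgf-basic, which takes them towards epiblast stem cells (EpiSC), and the medium was changed daily.

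XX and XO stand for the number of X chromosomes in cells that carry the same line name, and the labels name no separate clones. E14 is another line, so that line and sex chromosomes cannot be told apart in any comparison with XY. The 0 h condition of each line and the 36 h condition of XX and XO have 2 arrays, A and B; the other 37 conditions have 1 array each. Array medians of the log2 values lay between 6.80 and 7.10. Values are log2 expression levels, so a difference of 1 is a 2-fold change, and levels were compared within a gene only. Where RNA of a mixed culture is measured, fewer cells of a type and less RNA per cell cannot be told apart. Markers of naive and primed cells were not checked, since no table at hand pairs their names with the identifiers of the files.

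Mek phosphorylates Erk, and active Erk reaches the nucleus, where it phosphorylates Ets family factors of the ternary complex type that sit on the promoters of Egr1, Fos and other immediate early genes. As a class these genes need no new protein synthesis to be transcribed, and their RNAs are short-lived, though Fosl1 comes up later than Fos. Several are also driven by other inputs such as stress kinases, serum response factor and cyclic AMP. Etv1, Etv4 and Etv5 form the Pea3 group of Ets factors, whose RNA is a widely used readout of Fgf signalling in the embryo, and in mouse embryonic stem cells Fgf and Erk signalling drives exit from the naive state, which is why Mek1 inhibitors are part of naive culture medium.

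Promoter sequences, from 250 bases before to 50 after an annotated gene start, were at hand for 6 of the 10 genes in RefSeq (build GRCm38.p6). Those of 5 genes are shown because they hold short motifs that bear on the Erk pathway and on how the gene products bind DNA. Capitals mark the Ets core GGAAGT, the cyclic AMP response core TGACGT, the Jun and Atf type site TGACNTCA and the TATA box TATAAA, read on both strands; the motifs were chosen after the sequences had been read, and no match overlapped another. The order is Fos (chr12:85473640-85473939, plus strand), Jun (chr4:95052173-95052472, minus strand), Junb (chr8:84978699-84978998, minus strand), the upstream start of Etv1 (chr12:38779832-38780131, plus strand) and the downstream of 2 starts of Etv5 (chr16:22438319-22438618, minus strand), each 5′ to 3′ along its gene.
Fos: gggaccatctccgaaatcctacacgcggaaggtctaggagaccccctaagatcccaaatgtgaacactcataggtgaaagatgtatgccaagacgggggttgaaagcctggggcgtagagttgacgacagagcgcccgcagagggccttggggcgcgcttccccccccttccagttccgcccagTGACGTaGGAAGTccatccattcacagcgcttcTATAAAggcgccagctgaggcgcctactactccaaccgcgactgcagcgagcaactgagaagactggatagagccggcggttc
Jun: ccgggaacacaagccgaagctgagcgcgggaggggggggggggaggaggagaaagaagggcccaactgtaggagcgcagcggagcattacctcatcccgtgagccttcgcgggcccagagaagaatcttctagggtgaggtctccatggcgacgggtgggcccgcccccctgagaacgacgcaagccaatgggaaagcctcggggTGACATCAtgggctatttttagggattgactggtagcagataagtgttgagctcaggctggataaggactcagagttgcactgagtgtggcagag
Junb: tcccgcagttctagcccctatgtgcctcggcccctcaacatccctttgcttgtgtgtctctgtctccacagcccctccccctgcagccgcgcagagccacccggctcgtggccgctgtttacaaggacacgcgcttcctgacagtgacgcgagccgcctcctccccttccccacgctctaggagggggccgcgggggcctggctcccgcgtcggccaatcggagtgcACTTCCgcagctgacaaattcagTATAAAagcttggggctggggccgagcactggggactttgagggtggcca
Etv1: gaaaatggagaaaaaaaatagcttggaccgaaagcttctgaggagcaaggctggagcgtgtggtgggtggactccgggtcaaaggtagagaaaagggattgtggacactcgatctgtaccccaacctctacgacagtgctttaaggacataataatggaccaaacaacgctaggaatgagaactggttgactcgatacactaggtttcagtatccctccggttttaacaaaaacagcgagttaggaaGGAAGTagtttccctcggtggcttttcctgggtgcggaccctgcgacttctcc
Etv5: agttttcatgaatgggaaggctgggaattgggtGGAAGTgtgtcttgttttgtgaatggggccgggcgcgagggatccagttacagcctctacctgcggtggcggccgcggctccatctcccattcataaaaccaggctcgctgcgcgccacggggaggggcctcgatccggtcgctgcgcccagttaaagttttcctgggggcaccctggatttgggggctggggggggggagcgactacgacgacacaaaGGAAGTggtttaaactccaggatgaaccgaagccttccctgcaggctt

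Positions are counted from the gene start, which is 1. In Fos the Ets core at -59 to -54 follows the cyclic AMP response core at -66 to -61, and a TATA box lies at -33 to -28. Jun holds the Jun and Atf type site at -45 to -38. Junb has an Ets core on the opposite strand at -23 to -18. Its match to the TATA box letters lies at 1 to 6, on the annotated start and not before it. Etv1 has an Ets core across its start, at -3 to 3, and Etv5 has 2, at -217 to -212 and at 3 to 8. The Ets core was found in 4 of the 8 promoters of these 6 genes and in 23.8% of all 32851 mouse promoters in the table. The cyclic AMP response core was in 1 of the 8 and in 7.51% of all promoters. For the Jun and Atf type site these were 1 and 8.83%, and for the TATA box 3 and 13.6%. The serum response element (CArG box), by which serum response factor binds, was in 0 of the 8 and in 1.63% of all. Sites more than 250 bases before the start were not read, and Egr1, Fosl1, Ier2 and Etv4 had no promoter at hand. The count therefore does not show that these genes lack the element. The promoter of Ier3 (chr17:35821463-35821762, plus strand) and the other starts of Etv1 and Etv5 had none of the Ets cores.

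Egr1 and Fos had their highest levels in the naive medium and dropped within hours of leaving it in all 3 lines. Egr1 encodes a zinc finger factor and Fos a leucine zipper protein that pairs with Jun proteins to form AP-1. In XX cells the Egr1 level was 8.75, 7.42, 6.95 and 6.79 at 6, 12, 18 and 24 h, against 12.40 and 12.40 on the 0 h arrays A and B. In XO cells it was 8.33, 8.25, 7.89 and 7.98 at those times, against 10.08 and 12.24 at 0 h. In XY cells it was 8.05, 6.58 and 6.72 at 8, 16 and 24 h, against 10.56 and 8.48 at 0 h. No array of 6 to 24 h reached any 0 h array of its own line, but the pairs of 0 h arrays differed by more than 2 log2 units in XO and in XY and were alike in XX. The mean of 6 to 24 h minus that of 0 h was -4.92 ± 0.58 (SE) in XX, 30.3-fold lower (adjusted p = 1.35e-07, limma), -3.05 ± 0.58 in XO (adjusted p = 6.14e-04) and -2.40 ± 0.61 in XY (adjusted p = 0.0096).

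Fos followed the same course with less scatter after 0 h. Its level in XX was 6.52, 6.12, 5.53 and 6.03 at 6 to 24 h, against 9.25 and 10.40 at 0 h. In XO it was 5.85, 6.15, 5.85 and 5.26, against 8.05 and 9.19 at 0 h, and in XY 6.32, 5.84 and 5.84, against 8.36 and 6.97. The groups did not overlap in any line. The change was -3.77 ± 0.31 in XX, 13.7-fold lower (adjusted p = 2.20e-11), -2.84 ± 0.31 in XO (adjusted p = 2.86e-08) and -1.66 ± 0.33 in XY (adjusted p = 6.21e-04). The drops in XX held without any single array. The Egr1 call in XO ended without XO array B at 0 h (-1.97, adjusted p = 0.20), and in XY without XY array A at 0 h (-1.36, adjusted p = 0.41) or the 16 h array (-2.14, adjusted p = 0.055). The Fos call in XY ended without XY array A at 0 h as well (-0.97, adjusted p = 0.19).

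**Figure D1:**
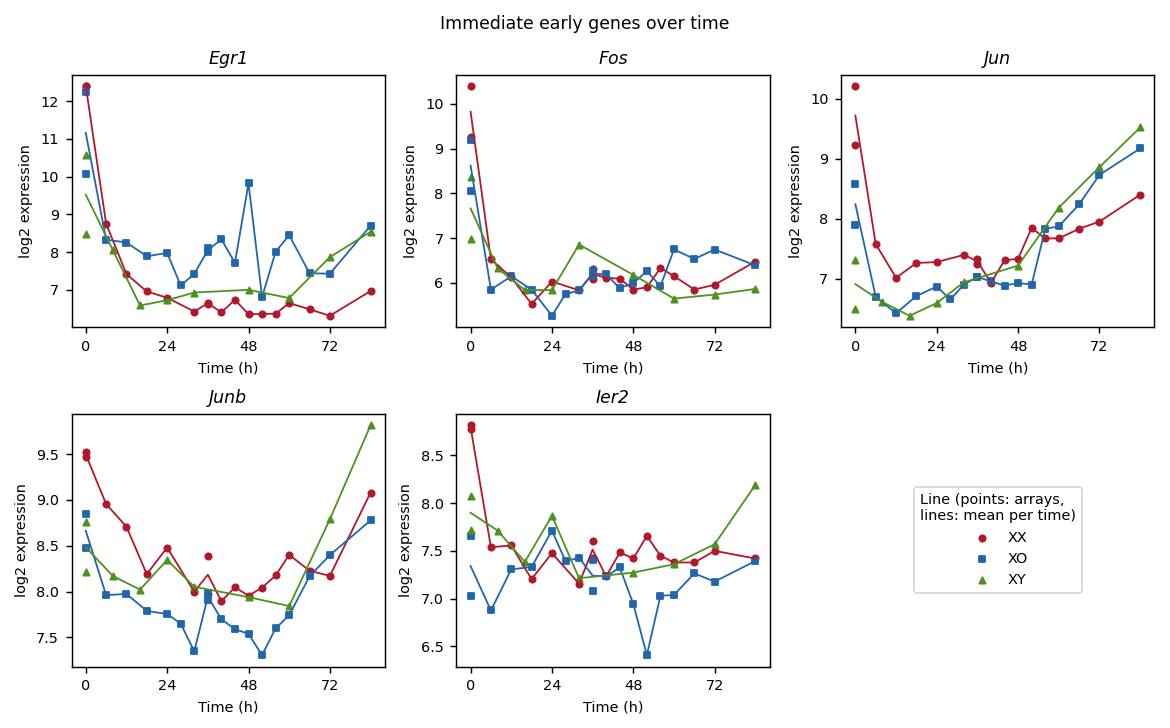
Log2 expression level (vertical axis) of immediate early genes against hours after the change of medium (horizontal axis) in XX, XO and XY cells, 1 point per array. Egr1 starts at 12.40 on both XX arrays and stays at or under 8.75 in XX from 6 h on, and the 84 h array of each line is the highest for Jun after 0 h.

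Over the whole 84 h, Fos stayed below both of its 0 h arrays on 16 of 16 later arrays in XX, 17 of 17 in XO and 8 of 8 in XY. Egr1 did so on 16 of 16, 17 of 17 and 7 of 8 arrays, and the exception was XY at 84 h with 8.54. After 0 h Egr1 spanned 6.31 to 8.75 in XX and 6.81 to 9.82 in XO. Its highest later XO value, 9.82 at 48 h, stood between 7.71 at 44 h and 6.81 at 52 h, and was a single array.

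Jun and Ier2 fell together with Egr1 and Fos in XX cells. Jun is the main partner of Fos in AP-1, and Ier2 is a short-lived protein of the immediate early class. Jun had 7.58, 7.02, 7.26 and 7.28 at 6 to 24 h in XX, against 9.22 and 10.21 at 0 h; the change was -2.43 ± 0.34 (adjusted p = 4.04e-06). In XO it had 6.70, 6.43, 6.71 and 6.87, against 7.90 and 8.58, a change of -1.56 ± 0.34 (adjusted p = 0.0030) that did not pass without XO array B at 0 h (-1.22, adjusted p = 0.20). In XY, where Jun began lowest, 6.61, 6.38 and 6.60 stood against 7.32 and 6.50, and the change of -0.38 did not pass (adjusted p = 0.61).

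Ier2 in XX had 7.54, 7.56, 7.20 and 7.48 at 6 to 24 h, against 8.78 and 8.81 at 0 h, a change of -1.35 ± 0.21 (adjusted p = 2.67e-05). The early and 0 h arrays overlapped in XO (6.88 to 7.71 against 7.03 and 7.65) and in XY (7.38 to 7.87 against 8.08 and 7.72), and neither line passed. Junb, another AP-1 partner, changed by -0.91 in XX, -0.79 in XO and -0.31 in XY, none past the threshold in the fit over all arrays (adjusted p = 0.081, 0.15 and 0.68); in XX it passed without the XX 6 h array (-1.04, adjusted p = 0.049), the XY 60 h array or the XY 84 h array (-0.91 in both, adjusted p = 0.037 and 0.035).

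Counted over the list, 7 of the 10 genes passed between 6 to 24 h and 0 h in XX (4 lower, 3 higher), beside 7.08% of all genes tested, 4.68% lower and 2.4% higher. In XO 6 passed (3 lower, 3 higher), beside 6.39% of all genes, 2.16% lower and 4.23% higher. In XY 5 passed (2 lower, 3 higher), beside 7.52% of all genes, 2.91% lower and 4.61% higher, and without XY array A at 0 h the count was 3. The 7 immediate early genes had a median change of -1.35 (XX), -0.79 (XO) and -0.31 (XY), against 0.0014, 0.054 and 0.035 over all genes, and that of the 3 Etv genes was 1.11, 1.36 and 1.77. Each line's window contrasts share its 2 arrays at 0 h.

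The genes that rose in the same hours were all 3 Pea3 factors, in all 3 lines. Etv4, which like its relatives binds GGAA sites and acts in limb, kidney and lung growth, had the largest changes of the group in XO and XY. Its level in XX was 8.52, 9.11, 8.74 and 8.94 at 6, 12, 18 and 24 h, against 7.42 and 8.02 at 0 h, which is 2.15-fold higher (1.11 ± 0.23, adjusted p = 9.42e-04). In XO it was 8.79, 9.13, 9.01 and 8.93, against 6.74 and 6.95 at 0 h, 4.35-fold higher (2.12 ± 0.23, adjusted p = 1.96e-08). In XY it was 9.24, 9.12 and 9.19 at 8, 16 and 24 h, against 7.05 and 6.64 at 0 h, 5.06-fold higher (2.34 ± 0.24, adjusted p = 4.78e-09). The 0 h and later arrays did not overlap in any line. The XX call ended without XX array A at 0 h (0.80, adjusted p = 0.10).

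Etv5, which in embryonic stem cells is known as a factor in the naive to primed transition, had 10.25, 10.19, 10.27 and 10.08 at 6 to 24 h in XX, against 9.39 and 9.72 at 0 h. In XO it had 10.36, 10.41, 10.24 and 10.21, against 8.95 and 9.55 (1.06 ± 0.20, adjusted p = 4.37e-04; 0.76 without XO array A at 0 h, adjusted p = 0.097). In XY it had 10.87, 10.80 and 10.90, against 9.003 and 9.34 (1.68 ± 0.21, adjusted p = 2.49e-07). All later values were above both 0 h arrays in each line, but the XX change of 0.65 ± 0.20 (adjusted p = 0.034) was lost without XX array A or B at 0 h, or those at 6, 12 or 18 h, with values of 0.48 to 0.81 and adjusted p of 0.34, 0.093, 0.053, 0.060 and 0.077.

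Etv1, a Pea3 factor best known from motor and sensory circuits and as a fusion partner in tumours, rose in each line too. Its level was 9.34, 8.93, 8.92 and 9.54 at 6 to 24 h in XX, against 8.10 and 7.58 at 0 h (1.35 ± 0.28, adjusted p = 0.0010; 1.09 without XX array B at 0 h, adjusted p = 0.12). In XO it was 9.05, 9.35, 9.19 and 9.51, against 7.87 and 7.95 (1.36 ± 0.28, adjusted p = 0.0012). In XY it was 9.69, 9.55 and 9.99, against 7.61 and 8.34 (1.77 ± 0.29, adjusted p = 5.19e-05). No 0 h array reached a later one in any of the 3 lines up to 24 h.

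**Figure D2:**
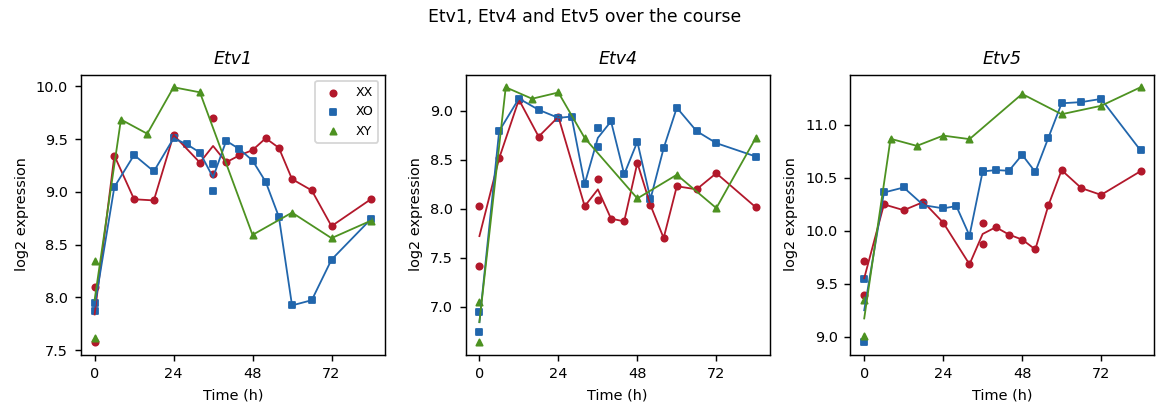
Log2 expression level (vertical axis) of Etv1, Etv4 and Etv5 against hours after the change of medium (horizontal axis), 1 point per array, in XX, XO and XY cells. All 3 genes are above their 0 h arrays by 6 or 8 h, and from 36 h on Etv5 is lowest in XX.

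The Pea3 genes parted after the first day. Etv5 stayed above both 0 h arrays on 15 of 16 later arrays in XX, 17 of 17 in XO and 8 of 8 in XY. In the last window, 52 to 84 h, it spanned 9.82 to 10.57 with a median of 10.37 in XX, 10.56 to 11.25 with a median of 11.04 in XO, and had 11.10, 11.18 and 11.36 in XY. Against 0 h these were changes of 0.77 ± 0.18 in XX (adjusted p = 0.0019; lost without XX array A at 0 h, 0.61, adjusted p = 0.11), 1.73 ± 0.18 in XO (adjusted p = 2.49e-09) and 2.04 ± 0.21 in XY (adjusted p = 5.93e-10). A comparison of 52 to 84 h with 28 to 48 h was added after these values were seen. It was not planned for any gene. Its p-values, also those for Etv1 and Jun below, are therefore no independent test of a late change. In XO Etv5 was higher in the later window by 0.52 ± 0.13 (adjusted p = 0.0023).

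Etv4 had its highest levels early, with 9.11 in XX and 9.13 in XO at 12 h and 9.24 in XY at 8 h. In the last window its level spanned 7.70 to 8.36 with a median of 8.12 in XX, against 7.42 and 8.02 at 0 h, and the change of 0.37 did not pass (adjusted p = 0.28). In XO it spanned 8.10 to 9.03 with a median of 8.65, a rise of 1.78 ± 0.21 (adjusted p = 2.35e-08), and in XY it had 8.35, 8.01 and 8.72, a rise of 1.52 ± 0.24 (adjusted p = 3.84e-06). Those windows did not overlap the 0 h arrays in XO or XY, while in XX they did.

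Etv1 fell back in XO cells after 48 h, in XY cells between 32 and 48 h and, by less, in XX cells after 52 h. Its XO level was 9.30 at 48 h, 9.10 at 52 h, 8.76 at 56 h, 7.92 at 60 h, 7.97 at 66 h, 8.36 at 72 h and 8.74 at 84 h, so that the 60 h array lay between the 0 h arrays. The XY level was 9.94 at 32 h, then 8.59, 8.80, 8.56 and 8.73 at 48, 60, 72 and 84 h. In XO the mean of 52 to 84 h was lower than that of 28 to 48 h by 0.85 ± 0.18 log2 units (adjusted p = 5.23e-04). The difference was -0.25 in XX (adjusted p = 0.49) and -0.57 in XY (adjusted p = 0.26). The XY middle window held only the 32 and 48 h arrays, which lay on either side of its fall. In XX Etv1 went from 9.51 at 52 h through 9.42 at 56 h and 9.01 at 66 h to 8.68 at 72 h. That was its lowest XX value after 0 h, still above both 0 h arrays. The XX level was 9.12 at 60 h and 8.93 at 84 h, and against 0 h the last window was higher by 1.27 ± 0.26 in XX (adjusted p = 3.15e-04; 1.01 without XX array B at 0 h, adjusted p = 0.055). The same contrast was 0.56 in XO and 0.72 in XY, past the threshold in neither (adjusted p = 0.12 and 0.063). In XY it passed without XY array B at 0 h (1.08, adjusted p = 0.032) and without the XO 52 h, XY 32 h or XY 48 h array (0.72 each).

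Jun climbed again late. Its level in XX was 7.33 at 48 h, 7.85 at 52 h, 7.67 at 56 h, 7.67 at 60 h, 7.83 at 66 h, 7.95 at 72 h and 8.40 at 84 h. In XO it was 6.93 at 48 h, 6.90 at 52 h, 7.83 at 56 h, 7.87 at 60 h, 8.24 at 66 h, 8.73 at 72 h and 9.17 at 84 h. In XY it was 7.22 at 48 h, 8.18 at 60 h, 8.86 at 72 h and 9.52 at 84 h. The last array of each course was its highest after 0 h. The window comparison that follows is the unplanned one, added after values had been seen. In 52 to 84 h, set against 28 to 48 h, Jun was higher by 1.21 ± 0.22 in XO (adjusted p = 1.01e-04) and by 1.77 ± 0.36 in XY (adjusted p = 0.0037; 1.63 without the XY 32 h array, adjusted p = 0.18). In XX the difference of 0.64 missed the threshold (adjusted p = 0.093; 0.042 without the XO 52 h array).

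Against 0 h, late Jun was on different sides in the lines: lower by 1.82 ± 0.33 log2 units in XX (adjusted p = 4.65e-05), with a difference of -0.12 in XO (adjusted p = 0.85), and higher by 1.94 ± 0.36 in XY (adjusted p = 6.05e-05). Junb had 9.08 at 84 h in XX, 8.78 in XO and 9.81 in XY, the highest value after 0 h in each line, on 1 array each. Its late mean was lower than at 0 h in XX (-1.15 ± 0.30, adjusted p = 0.0054), a call that ended without XX array A (-1.17, adjusted p = 0.055) or B (-1.12, adjusted p = 0.083) at 0 h. In XO the late difference of -0.67 did not pass (adjusted p = 0.11; -0.82 and 0.036 without the XO 84 h array).

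Of the 10 genes, 7 differed between 52 to 84 h and 0 h in XX (2 higher, 5 lower; 17.3% of all genes did in either direction), 6 in XO (4 higher, 2 lower; 25.1% of all genes) and 5 in XY (3 higher, 2 lower; 26.5% of all genes). Of the lower ones in XY, Egr1 (-1.79, adjusted p = 0.026) was lost without XY array A at 0 h (-0.75, adjusted p = 0.54) or the XY 60 h array (-1.32, adjusted p = 0.14). Between the last and the middle window 0 passed in XX (6.2% of all genes), 3 in XO (18.2%) and 1 in XY (4.6%). Before adjustment, Etv5 and Jun passed 0.05 in XX, and after adjustment Etv5 passed there without the XX 52 h array (0.50, adjusted p = 0.011), the XO 32 h array or the XO 52 h array (0.40 in both). In XY the call was lost without the 32 h array, while Etv1 (-1.25, adjusted p = 0.011) joined it without the 48 h array and Junb (1.31, adjusted p = 0.0095) without the 60 h array.

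**Figure D3:**
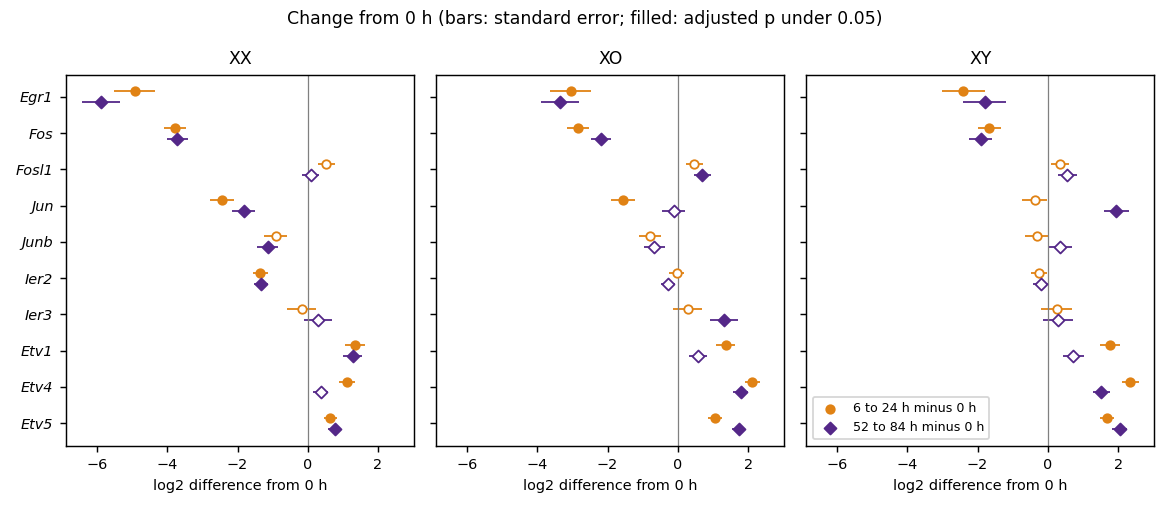
Mean log2 difference from 0 h (horizontal axis, bars are standard errors) of each gene in 6 to 24 h (circles) and 52 to 84 h (diamonds), with a panel each for XX, XO and XY cells and filled points where the adjusted p was under 0.05. Egr1 and Fos lie left of 0 in every panel and the 3 Etv genes right of it, and Jun in 52 to 84 h lies at -1.82 in XX and 1.94 in XY.

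Fosl1 and Ier3 followed neither pattern. Fosl1 is a Fos relative whose RNA comes up later than that of Fos after a stimulus, and Ier3 is a stress-response protein that in human cells acts on survival and slows the dephosphorylation of Erk. The highest Fosl1 level on the cell arrays was 8.34, in XX at 6 h, against 6.70 and 6.85 at 0 h and 7.09 at 12 h, on 1 array; at 6 h XO had 7.14, and at 8 h XY had 7.28. All 17 later XO arrays, at 6.68 to 7.33, were above the XO 0 h arrays at 6.40 and 6.49. The late change in XO was 0.69 ± 0.24 (adjusted p = 0.027) and ended without XO array A (0.65, adjusted p = 0.19) or B (0.74, adjusted p = 0.13) at 0 h, with arrays centred on their medians (0.56, adjusted p = 0.096) or quantile normalized (0.59, adjusted p = 0.068), and over 60 to 84 h alone (0.64, adjusted p = 0.061). In XX and XY the late differences of 0.084 and 0.55 did not pass (adjusted p = 0.89 and 0.13), though in XY that of 0.55 did without the XX 6 h array (adjusted p = 0.039).

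Ier3 rose in XO to 9.26 at 52 h and 9.10 at 56 h, against 6.52 and 6.89 at 0 h, and was back at 7.36 by 60 h. Over 52 to 84 h its XO mean was higher than at 0 h by 1.32 ± 0.39 (adjusted p = 0.0097; 1.13 without XO array A at 0 h, adjusted p = 0.16; 0.73 over 60 to 84 h alone, adjusted p = 0.19). In XX the highest levels were 7.77, 7.80 and 7.69 at 52, 56 and 60 h, against 7.01 and 7.17 at 0 h, and the late difference of 0.28 did not pass (adjusted p = 0.73). In XY Ier3 had 8.00 at 32 h, 7.97 at 48 h and 8.05 at 84 h, with 7.09 at 60 h and 7.18 at 72 h between them, against 6.91 and 7.39 at 0 h; the late difference of 0.29 did not pass (adjusted p = 0.68).

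**Figure D4:**
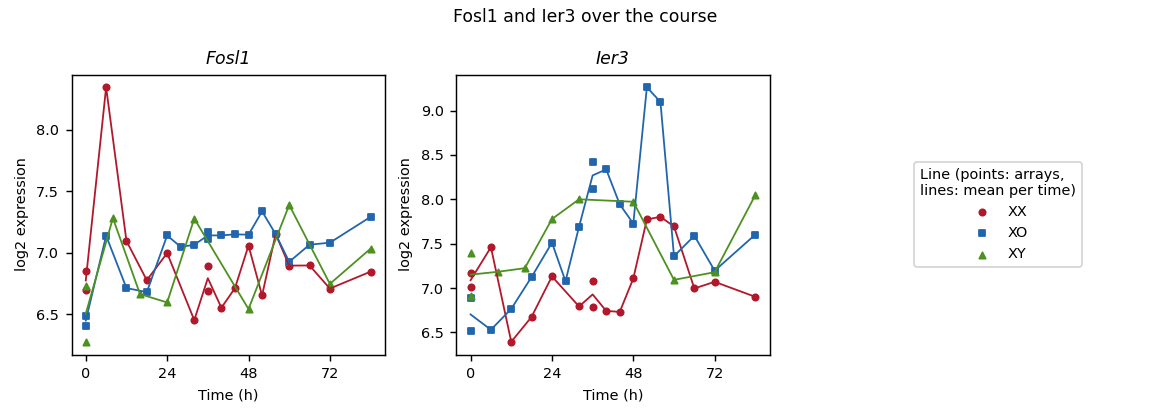
Log2 expression level (vertical axis) of Fosl1 and Ier3 against hours after the change of medium (horizontal axis), 1 point per array, in XX, XO and XY cells. The Fosl1 value of 8.34 in XX at 6 h and the Ier3 values of 9.26 and 9.10 in XO at 52 and 56 h stand above the rest of their courses.

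In the naive medium XX cells had more RNA of several of these genes than XO or XY cells. Jun had 9.22 and 10.21 on the XX arrays, against 7.90 and 8.58 on the XO arrays and 7.32 and 6.50 on the XY arrays. The 3 lines did not overlap, with XX highest and XY lowest. Ier2 had 8.78 and 8.81 in XX, against 7.03 and 7.65 in XO and 8.08 and 7.72 in XY, so that XO was lowest. Etv4 had 7.42 and 8.02 in XX, against 6.74 and 6.95 in XO and 7.05 and 6.64 in XY.

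Between XX and XO at 0 h these 3 genes passed, all higher in XX, beside 9.15% of all genes: Ier2 by 1.45 ± 0.23 (adjusted p = 0.0058), Jun by 1.48 ± 0.37 (adjusted p = 0.039) and Etv4 by 0.88 ± 0.23 (adjusted p = 0.046). The Ier2 call held without any single array. Jun was lost without either array of XO at 0 h, XX at 36 h or XO at 36 h, or without XX array B at 0 h (0.98 to 1.82, adjusted p = 0.061 to 0.20), and with quantile normalization (1.27, adjusted p = 0.069). Etv4 was lost without any of those 7 arrays (0.58 to 0.98, adjusted p = 0.065 to 0.21), with median-centred arrays (0.77, adjusted p = 0.076) and with quantile normalization (0.73, adjusted p = 0.085). Junb at 9.47 and 9.52 in XX, against 8.48 and 8.85 in XO, missed the threshold (0.83, adjusted p = 0.052; 0.038 without either XY array at 0 h), as did Egr1 (1.24, adjusted p = 0.35) and Fos (1.20, adjusted p = 0.21), for which the lowest XX array was only just above the highest XO array. The median difference of the 7 immediate early genes was 1.20, against 0.058 over all genes.

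Between XX and XY at 0 h 6 genes passed, all higher in XX, beside 12.4% of all genes; both comparisons share the XX arrays. Jun was higher by 2.81 ± 0.37 (6.99-fold, adjusted p = 0.0021), which held without any single array. Egr1 at 12.40 and 12.40 in XX, against 10.56 and 8.48 in XY, differed by 2.88 ± 0.72 (adjusted p = 0.034). Fos at 9.25 and 10.40, against 8.36 and 6.97, differed by 2.16 ± 0.52 (adjusted p = 0.029), and Junb at 9.47 and 9.52, against 8.76 and 8.21, by 1.01 ± 0.22 (adjusted p = 0.020). Ier2 (0.90 ± 0.23, adjusted p = 0.035) and Etv4 (0.88 ± 0.23, adjusted p = 0.038) completed the set.

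These calls rested on few arrays. Fos was lost without XX array B (1.59, adjusted p = 0.15) or XY array B (1.47, adjusted p = 0.15) at 0 h. Junb was lost without either XX array (1.04 and 0.98, adjusted p = 0.066 and 0.084) or XY array B at 0 h (0.74, adjusted p = 0.12). Egr1 was lost without either XX array at 0 h (2.88, adjusted p = 0.11 and 0.12), XY array B at 0 h (1.84, adjusted p = 0.16) or any of the 36 h arrays of XX or XO (adjusted p = 0.052 to 0.054). Ier2 was lost without any of the XX arrays or XY 0 h arrays (0.72 to 1.08, adjusted p = 0.051 to 0.17), and Etv4 without any array but XX array A at 0 h (0.57 to 1.08, adjusted p = 0.053 to 0.19). Both were also lost with arrays centred on their medians (Ier2 0.74, adjusted p = 0.052; Etv4 0.72, adjusted p = 0.073) and with quantile normalization (Ier2 0.75, adjusted p = 0.059; Etv4 0.68, adjusted p = 0.084), which left 4 of the 6 calls.

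Between XO and XY 0 of the 10 genes passed at 0 h, beside 9.7% of all genes. Jun came nearest (1.33 ± 0.37, adjusted p = 0.054, limma), and passed without either XX array at 0 h (adjusted p = 0.032). Without adjustment, Ier2 (-0.56) and Jun passed. For Egr1, Fos, Jun and Junb array B was above A in XO at 0 h, while A was above B in XY.

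At 36 h, with 2 arrays a line, Ier3 was the 1 gene of the list that differed between XX and XO, beside 8.97% of all genes. It had 7.08 and 6.78 in XX, against 8.42 and 8.12 in XO (-1.34 ± 0.22, adjusted p = 0.0064), and the call ended without XX array B (-1.19, adjusted p = 0.057) or XO array A (-1.19, adjusted p = 0.054) at 36 h. Egr1 at 6.65 and 6.63 in XX, against 8.01 and 8.10 in XO, did not overlap but did not pass (-1.41 ± 0.72, adjusted p = 0.30) in a fit whose estimate of spread also takes in the 0 h pairs. Etv5 at 10.07 and 9.87, against 10.57 and 10.55 (-0.59, adjusted p = 0.15), and Etv4 at 8.31 and 8.09, against 8.82 and 8.63 (-0.53, adjusted p = 0.21), were likewise apart without passing.

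Between 36 h and 0 h 6 genes passed in XX, beside 13.4% of all genes, and 8 in XO, beside 18.9%. In XX Egr1 fell by 5.76 ± 0.72 log2 units (54.1-fold, adjusted p = 0.0011), and the other genes that fell were Fos (-3.63), Jun (-2.43), Junb (-1.31) and Ier2 (-1.28), while Etv1 rose by 1.60. The Ier2 call ended without XX array B at 36 h (-1.19, adjusted p = 0.051). In XO those that fell were Egr1 (-3.11), Fos (-2.41) and Jun (-1.21), while Etv4 rose by 1.88, Ier3 by 1.57, Etv5 by 1.31, Etv1 by 1.23 and Fosl1 by 0.69. Of these XO calls those of Ier3, Etv4 and Etv5 held without any single array, and the count was 3 without XO array B at 0 h or either XO array at 36 h, and 5 without XO array A at 0 h. Junb in XO missed the threshold (-0.72, adjusted p = 0.054) and passed without either XY array at 0 h (adjusted p = 0.037).

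The difference of the 2 changes passed for 1 gene, beside 1.65% of all genes. Ier3 differed by -0.16 in XX and rose by 1.57 in XO, a difference of -1.73 ± 0.31 (adjusted p = 0.035), which did not pass without any 1 of the 8 XX and XO arrays (-1.91 to -1.54, adjusted p = 0.061 to 0.12). Without XX array A at 0 h Etv4 passed instead (-1.71, adjusted p = 0.041).

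From 28 to 48 h in differentiation medium, XX cells had less Egr1, Ier3, Etv4 and Etv5 RNA than XO cells. In 6 to 24 h 0 of the 10 genes differed between XX and XO, beside 11.4% of all genes; before adjustment, Junb (0.71) and Jun (0.61) passed 0.05. After adjustment Junb passed without the XY 60 h or the XY 84 h array (0.71 in both, adjusted p = 0.034 and 0.031). In 28 to 48 h 4 differed, all lower in XX, beside 20.7% of all genes. Egr1 spanned 6.35 to 6.73 with a median of 6.53 in XX (n = 6), against 7.11 to 9.82 with a median of 8.01 in XO (n = 7), and the windows did not overlap (-1.54 ± 0.37, adjusted p = 0.0020). Ier3 spanned 6.73 to 7.11 with a median of 6.79 in XX, against 7.08 to 8.42 with a median of 7.94 in XO (-1.03 ± 0.27, adjusted p = 0.0035).

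In the same window Etv4 spanned 7.87 to 8.47 with a median of 8.06 in XX, against 8.25 to 8.94 with a median of 8.69 in XO (-0.54 ± 0.15, adjusted p = 0.0050). Etv5 spanned 9.68 to 10.07 with a median of 9.94 in XX, against 9.95 to 10.72 with a median of 10.57 in XO (-0.53 ± 0.13, adjusted p = 0.0016). Both overlapped at their edges, as did Ier3. All 4 calls held without any single array. Fosl1 missed the threshold (-0.39, adjusted p = 0.084) and passed without the XX 6 h array (-0.39, adjusted p = 0.018).

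In 52 to 84 h 5 genes differed, beside 23.9% of all genes. Egr1 (-1.28 ± 0.39, adjusted p = 0.012), Etv4 (-0.53 ± 0.15, adjusted p = 0.0071) and Etv5 (-0.65 ± 0.13, adjusted p = 1.80e-04) were lower in XX again. Etv5 spanned 9.82 to 10.57 in XX, against 10.56 to 11.25 in XO, overlapping at the edge. Etv1 was higher in XX by 0.64 ± 0.18 (adjusted p = 0.0090), at 8.68 to 9.51, against 7.92 to 9.10 in XO. These 4 held without any single array. Ier2 was higher in XX by 0.41 ± 0.14 (adjusted p = 0.031), which ended without the XO 52 h array, the lowest of its XO course at 6.41 (0.28, adjusted p = 0.14), or the XX 52 h array (0.37, adjusted p = 0.075), and was 0.20 over 60 to 84 h alone (adjusted p = 0.56). Ier3 did not pass (-0.65, adjusted p = 0.086) but did without the XO 60 h (-0.78, adjusted p = 0.046) or 72 h array (-0.81, adjusted p = 0.029).

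**Figure D5:**
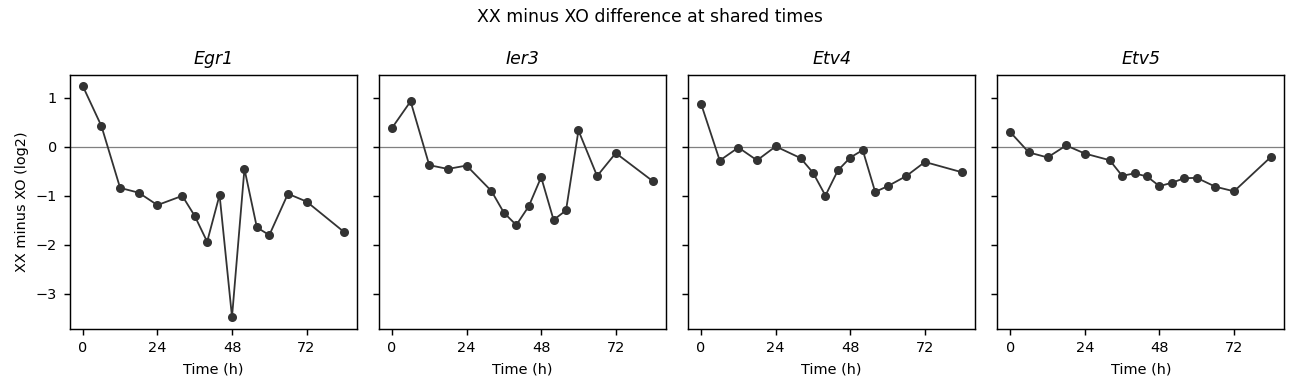
XX minus XO difference of log2 levels (vertical axis) at each of the times measured in both lines, against hours after the change of medium (horizontal axis), for Egr1, Ier3, Etv4 and Etv5. Egr1 is above 0 at 0 and 6 h and below it at every later time.

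Taken time by time, XX was below XO at 14 of the 15 shared times after 0 h for Egr1, Etv4 and Etv5, at 13 for Ier3 and at 11 for Fosl1. The counts were 9 for Fos, 6 for Jun, 5 for Etv1, 4 for Ier2 and 1 for Junb. The widest Egr1 gap was -3.47 at 48 h, where the XO array peaked, and the Egr1 gap at 6 h was 0.42. The Etv1 difference stayed between -0.42 and 0.65 but for 1.20 at 60 h and 1.04 at 66 h, the times of the XO dip.

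Fitted as smooth courses over all 47 arrays, 8 of the 10 genes varied with time in each line, beside 34.1% of all genes in XX, 53.9% in XO and 50.2% in XY. Fosl1 did not pass in any line (adjusted p = 0.34 in XX, 0.20 in XO and 0.81 in XY), though in XO it did without the XX 6 h array (adjusted p = 0.042). Ier3 did not pass in XX (adjusted p = 0.27) or XY (adjusted p = 0.14), and Ier2 not in XO (adjusted p = 0.11; 0.033 without XO array B at 0 h). The Ier2 course in XY passed narrowly (adjusted p = 0.049) and was lost without any of 33 of the 47 arrays, with quantile normalization (adjusted p = 0.061) and with splines of 5 degrees of freedom (adjusted p = 0.069). Without XY array A at 0 h the XY count was 5, and Egr1 (adjusted p = 0.058) and Fos (adjusted p = 0.14) were among those lost. Etv1, Etv4 and Etv5 in XX were lost without 1 array each: XX array B at 0 h (adjusted p = 0.076), the XX 12 h array (adjusted p = 0.073) and XX array A at 0 h (adjusted p = 0.073). With splines of 3 degrees of freedom instead of 4, Etv4 (adjusted p = 0.31) and Etv5 (adjusted p = 0.14) in XX and Fos in XY (adjusted p = 0.071) did not pass.

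The XX and XO courses differed in shape or extent for 5 genes, beside 27.1% of all genes. As the fitted change from 0 to 84 h, Ier2 had -1.20 ± 0.27 in XX and 0.30 ± 0.26 in XO (adjusted p = 9.02e-04), and Jun -1.001 ± 0.40 in XX and 1.41 ± 0.40 in XO (adjusted p = 0.0074). Ier3 had -0.40 ± 0.44 in XX and 0.57 ± 0.44 in XO (adjusted p = 0.017). Egr1 had -5.09 ± 0.71 in XX and -2.52 ± 0.71 in XO (adjusted p = 0.025), and Etv5 0.89 ± 0.28 and 1.42 ± 0.28 (adjusted p = 0.038). Each adjusted p is that of the F test of all spline terms, not of the fitted change. Ier2 and Jun held without any single array. The count was 3 without XX array B or XO array A at 0 h: Egr1 was lost without XX array A, XX array B or XO array A at 0 h or the XO 6 h array (adjusted p = 0.063 to 0.15), and Etv5 without 12 different arrays (adjusted p = 0.051 to 0.11), with splines of 3 degrees of freedom (adjusted p = 0.080) and with quantile normalization (adjusted p = 0.052). Without the XO 84 h array, the last of its course, the fitted Ier3 difference was 0.77, against -0.97 with it. Etv4 (-1.14, adjusted p = 0.060), Fosl1 (-1.04, adjusted p = 0.080) and Fos (-1.34, adjusted p = 0.17) did not pass over all arrays. Etv4 did without XX array A at 0 h or the XX 48 h, XO 6 h, XO 32 h, XO 52 h or XY 8 h array (adjusted p = 0.013 to 0.047), Fosl1 without XX array A at 0 h or the XO 6 h array (adjusted p = 0.039 and 0.041), and Fos without the XX 6 h array or XO array B at 0 h (adjusted p = 0.037 and 0.026).

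The correlation of log2 levels between the genes across the 47 arrays is given as a description over arrays that share lines and times. Egr1 and Fos were closest (r = 0.83), followed by Junb with Ier2 and Jun with Junb (both r = 0.72) and Etv4 with Etv5 (r = 0.66). Etv1 was closer to Etv4 (r = 0.53) than to Etv5 (r = 0.21), and ran against Fos (r = -0.69), Egr1 (r = -0.64) and Jun (r = -0.63). Fosl1 and Ier3 had no partner of the list above r = 0.44 and 0.43. Many genes outside the list were closer to most members. Ranked by correlation among all genes, Fos was 2 for Egr1, and Egr1 was 4 for Fos. Junb was 6 for Ier2 and 39 for Jun, and Ier2 was 45 for Junb. Etv5 was 28 for Etv4, while Etv4 was 274 for Etv5 and 660 for Etv1. Among all 22745 genes the one most like Etv5 was ENSMUSG00000038764 (r = 0.91), which has no symbol in the sources used here.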

How the data were processed

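Per the labels' protocols, total RNA was labelled with the Ambion WT protocol for Affymetrix Mouse Exon 1.0 ST arrays. The deposited values are log2 expression levels, 1 for each Ensembl gene and array. RMA and affy are the tools listed in the submitters' processing notes. Their versions, the probe annotation and the genome build were not given in the sources used. RMA includes a quantile step, so changes of total RNA are not measured. The medians of the deposited gene values still differed between arrays. Array columns were matched to samples by sample identifier, and line, time and replicate were read from the titles. The 1 array of commercial reference RNA was left out of all comparisons.

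All models were fitted with limma 3.58.1 under R 4.3.3, with two-sided moderated tests and p-values adjusted by Benjamini-Hochberg across the 22745 genes (threshold 0.05). The 0 h and 36 h comparisons used the 10 duplicated arrays (5 residual degrees of freedom). The windows 0, 6 to 24, 28 to 48 and 52 to 84 h held 2, 4, 6 and 6 XX arrays, 2, 4, 7 and 6 XO arrays and 2, 3, 2 and 3 XY arrays; neighbouring times stand in for replicates, so the spread includes change within a window. Each line's course over the 47 arrays was a natural spline of time (4 degrees of freedom, knots at 17, 36 and 56 h), with an F test. A ± gives a standard error. Nothing in the labels makes A and B separate cultures, and p-values therefore rest on the spread among arrays, which may be technical in part. Array number limits the precision. The fits of duplicated arrays, windows and courses were tested on simulated data with changes added to XX arrays. Other steps were not tested in that way.

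The 10 genes, their lists and the windows were chosen with earlier results of these data known. The rule for named genes was to name all 10, with full values where a comparison passed, and the genes most alike in correlation. The gene names are those given with the identifiers; no table at hand pairs other Ensembl identifiers with symbols, so the planned pathway and cell type marker lists were not used. Alternatives were median centring, quantile normalization, leaving out the lowest 25% of genes, trended and robust eBayes, a replicate block, replicate B arrays only, other windows, splines with 3 or 5 degrees of freedom, and leaving out each array.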

Additional observations from a re-analysis of the deposited data

Results flagged for a closer look

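The change between 36 h and 0 h differed between XX and XO for 1 gene: Ier3 by -1.73 log2 units (-0.16 in XX, 1.57 in XO; adjusted p = 0.035, limma).

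The XX and XO courses differed by the test of the difference for 5 genes, given as the fitted change over 84 h in XX minus that in XO. The values were -2.58 ± 1.01 for Egr1 (adjusted p = 0.025), -2.41 ± 0.56 for Jun (adjusted p = 0.0074) and -1.51 ± 0.37 for Ier2 (adjusted p = 9.02e-04). Those of Ier3 and Etv5 were -0.97 ± 0.63 (adjusted p = 0.017) and -0.53 ± 0.40 (adjusted p = 0.038). Each adjusted p (limma) is that of the F test of all spline terms, not of the 84 h value. Beside these values, the median over all 22745 genes was -0.14. Egr1, Jun and Ier2 had higher levels in XX than in XO at 0 h, by 1.24, 1.48 and 1.45, of which that of Egr1 did not pass (adjusted p = 0.35).

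The array of commercial mouse reference RNA, which entered no comparison, had levels above all 47 cell arrays for 5 of the 10 genes, against 11.9% of all genes. These were Egr1 with 12.75, Jun with 10.93, Junb with 10.90, Ier3 with 10.73 and Fosl1 with 10.00. It is 1 array of RNA from another source, so the levels are given as values only.

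No condition has 4 or more arrays, so single arrays were not tested as outliers.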

How the results depend on the processing

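The fits gave 103 results for single genes past the threshold. Over the alternatives that keep all lines, 592 of 630 recomputed values kept direction and threshold, 38 lost the threshold in 24 results, and 0 reversed. With 1 array left out, 3761 of 3916 kept both, 151 lost the threshold in 39 results, and 4 reversed. Of the 127 results not past it, 20 of 760 values passed under other alternatives and 39 of 4304 with 1 array left out.

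Counts of the 10 genes that passed moved by over 1.5 times as follows. For XX minus XO at 0 h, 3 became 1 with quantile normalization. For XO minus XY at 0 h, 0 became 1 (Jun) with the lowest 25% of genes left out and with trended, robust eBayes. With replicate B arrays only, the XY counts were 3 instead of 5 in 6 to 24 h and 5 instead of 8 for the course, and the difference of courses 2 instead of 5. For 52 to 84 h against 28 to 48 h, 0 became 1 in XX (Etv5) with that filter, with trended eBayes and with a last window of 60 to 84 h, and 1 became 2 in XY with a first window of 6 to 18 h. With 1 array left out, the counts ranged from 1 to 4 for XX minus XO, 1 to 5 for XX minus XY and 0 to 1 for XO minus XY at 0 h, from 0 to 1 for XX minus XO at 36 h, 3 to 9 for 36 h against 0 h in XO and 0 to 1 for the difference of those changes. They ranged from 3 to 5 for 6 to 24 h in XY, 0 to 1 for XX minus XO in 6 to 24 h, 0 to 2 for the last against the middle window in XX and 0 to 2 in XY, 5 to 8 for the XY course and 3 to 6 for the difference of courses.

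The fitted change over 84 h reversed without the 84 h array, when the fit is carried past the last time: Etv1 ranged from -0.25 to 0.91 in XX and from -0.58 to 0.57 in XO, Ier3 from -1.17 to 0.76 in XO, and the Ier3 difference from -1.75 to 0.77. The replicate letters did not pair the arrays, since A minus B correlated at -0.13 to 0.19 between conditions. With the replicate block, 2 instead of 3 genes passed for XX minus XO and 5 instead of 6 for XX minus XY at 0 h (Etv4 lost in both, 0.88), and 7 instead of 8 for 36 h in XO (Jun lost, -1.21). Centring arrays on their medians moved the median of all genes from 0.058 to -0.051 for XX minus XO at 0 h, from 0.088 to -0.071 for XX minus XY, from -0.14 to 0.003 for the difference of courses and from 0.12 to -0.12 for the XO course.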

Other observations

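Of the other 5 genes of the list, Etv5 had 8.42 on the reference RNA array, below all 47 cell arrays (8.95 to 11.36), and the other 4 lay within the range of the cells. Fos had 9.81 there, against 5.26 to 10.40 on the cell arrays.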
